A study of Homo sapiens with 47 samples.

Results

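The experiment compared dCas9-p300(core) guided to 6 regions beside estrogen receptor binding sites with the same fusion guided to the IL1RN promoter. Its members were chosen by construct and gRNA pool from the sample labels, which gave 8 of the 47 libraries in the series: for each of the H3K27ac and RNAPII antibodies, 2 libraries with the Adjacent gRNAs and 2 with the IL1RN gRNAs. The series measured chromatin of Ishikawa cells, an endometrial adenocarcinoma line that carries estrogen receptor alpha, by chromatin immunoprecipitation and sequencing (ChIP-seq). Cells of every group were grown without steroid hormones for at least 5 days, then transfected with a plasmid for the dCas9 fusion and plasmids for the gRNAs and selected with puromycin and G418. The Adjacent pool held 24 gRNAs, 4 for each of the 6 regions (A and B beside each of MMP17, CISH and FHL2), and the control group received gRNAs for the IL1RN promoter. Both groups therefore carried an active dCas9-p300(core), and each library came from a transiently transfected, mixed population. A further 6 libraries per antibody with dCas9-p300(core) and gRNA pools for ERBSs served as reference values. Nothing in the labels says that replicates came from separate cultures on separate days, so p-values measure only the spread between these libraries.

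p300 is a histone acetyltransferase, and acetylation of histone H3 at lysine 27 (H3K27ac) marks active enhancers and promoters. dCas9 is a Cas9 that binds the DNA matched by its gRNA without cutting it, and the core of p300 fused to it carries the acetyltransferase activity to that place. RNA polymerase II (RNAPII) gathers at active promoters and, at lower levels, at active enhancers. An estrogen receptor binding site (ERBS) is a site that the receptor occupies after estrogen treatment, and the adjacent regions lie near ERBSs of MMP17, CISH and FHL2 without being such sites. MMP17 encodes a membrane-anchored matrix metalloproteinase, CISH encodes an inhibitor of cytokine signalling through STAT5, and FHL2 encodes a LIM-domain cofactor of transcription.

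The 6 regions of 2000 bp differed in what surrounds them on hg19. MMP17-B (chr12:132292539-132294539) lay between genes, 19501 bp upstream of the MMP17 transcription start site (TSS) and 4872 bp from the centre of the nearest ERBS, MMP17-2. MMP17-A (chr12:132278270-132280270) lay in an intron of SFSWAP, a splicing regulator, 1393 bp from a TSS of that gene. CISH-A (chr3:50646137-50648137) lay inside CISH, 2055 bp downstream of its TSS, with coding and untranslated exons in it. CISH-B (chr3:50630832-50632832) lay 17360 bp downstream of the CISH TSS over an untranslated exon of HEMK1. FHL2-A (chr2:106028432-106030432) lay in an FHL2 intron 13925 bp upstream of the promoter used here, and FHL2-B (chr2:106005973-106007973) lay 8534 bp downstream of it over an untranslated exon. MMP17-B held 83 CpG dinucleotides, the most of the 6 regions, which ranged from 15 in CISH-A upward. No adjacent region held the palindromic estrogen response element, whose best match had 2 or 3 mismatches in each of the 6. Most ERBSs of the table lacked it too: CISH-1 and FHL2-3 had 0 mismatches, and the others had 1 to 3.

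The gRNAs of MMP17-B and CISH-B are shown because these were the regions where both Adjacent libraries exceeded both controls in H3K27ac. Each line gives the 20 bases matched by the gRNA in lower case with the adjoining NGG motif (PAM) in capitals, 5′ to 3′, and all 24 gRNAs had a single perfect genomic match, which lay inside the intended region. The numbers in the names are those of the study's gRNA list.
MMP17-B gRNA 152: aaggtttctaagacgccaagCGG
MMP17-B gRNA 405: gaggctctggccgaacaacgCGG
MMP17-B gRNA 448: ggagatctgaacgctgcgttAGG
MMP17-B gRNA 510: taaccacgggaatcaccgccAGG
CISH-B gRNA 15: ctcagccaagctattaaacaAGG
CISH-B gRNA 255: cctggcaatcagctcactgaAGG
CISH-B gRNA 344: gcctgcctgtatcctccaccAGG
CISH-B gRNA 524: gtagttgcaatggtgagctgAGG
The MMP17-B target sites lay at -200 to 158 bp from the centre of the region, where 132293328-132293350 on chromosome 12 is the leftmost and 132293686-132293708 the rightmost. Those of CISH-B spanned 509 bp around its centre, and the spans of all 6 regions ran from 333 to 544 bp.

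Signal in the table was the number of reads in a region divided by the total depth and by the average depth in peaks of the antibody, so a value of 1 is roughly the average of a peak. The H3K27ac libraries held 2767 and 1451 reads in the 23 regions of the table for Adjacent and 1753 and 1157 for IL1RN, and the RNAPII libraries held 2340 and 2990 for Adjacent and 819 and 2910 for IL1RN. One control library of each antibody stood apart. In regions with a peak in all 4 libraries, median fold enrichment was 48.4, 36.9 and 46.7 in both H3K27ac Adjacent libraries and IL1RN replicate 1 but 8.70 in IL1RN replicate 2, which had 4088 peaks against 16457 to 24280 in the other three. Its peak names also lacked an identifier that those of the other H3K27ac libraries of the comparison share, and the labels do not say what the identifier stands for. The 6 reference libraries with ERBS pools had 1805 to 10532 H3K27ac peaks, a range that holds the 4088 of IL1RN replicate 2. For RNAPII, where all 4 libraries share that identifier, the median was 28.4, 28.0 and 29.9 but 10.8 in IL1RN replicate 1, which had 18809 peaks against 27078 to 34400. Promoters of the 6 epithelial marker genes had an H3K27ac peak in both Adjacent libraries and IL1RN replicate 1, as did those of all 5 endometrial and receptor markers including ESR1, PGR and PAX8, whereas 4 of 6 and 3 of 5 had one in IL1RN replicate 2. Of 9 markers of other cell types, 1 (COL1A1) had a promoter peak.

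The IL1RN promoter served as a check of the labels, since only the controls carried gRNAs for it. IL1RN encodes the antagonist of the interleukin 1 receptor. Its H3K27ac signal was 0.423 and 5.37 in IL1RN replicates 1 and 2, and 0.0373 and 0.0271 in the Adjacent libraries. Both control values were above both Adjacent values, but replicate 1 was within the 0.0937 to 0.540 of the 6 libraries with ERBS pools, and a peak was called there in replicate 2 only. The limma estimate, Adjacent minus IL1RN, was -5.40 on the log2 scale (SE 1.78, adjusted p = 0.0951, n = 2 and 2). RNAPII at the IL1RN promoter was 0.154 and 0.0276 in the controls and 0.0162 and 0.0430 with Adjacent gRNAs, and the groups overlapped.

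H3K27ac passed the limma test at 1 of the 6 adjacent regions, MMP17-B. By the ratio of means alone, CISH-B (2.97) and FHL2-B (1.06) were above 1 as well. MMP17-A, CISH-A and FHL2-A had ratios of 0.512 to 0.622. At FHL2-A the limma change, taken on means of log2 values, had the other direction (0.16). MMP17-B had a normalized signal of 1.25 and 1.60 with Adjacent gRNAs and of 0.166 and 0.135 with IL1RN gRNAs, a 9.44-fold difference of means (1.42 ± 0.249 and 0.151 ± 0.0224, SD, n = 2 each). The 6 ERBS pool libraries of the same construct ranged from 0.0553 to 0.150, so both Adjacent libraries lay above all 8 other dCas9-p300(core) libraries and the groups did not overlap. The change was 3.20 on the log2 scale (SE 0.80, 95% interval 1.51 to 4.89, limma adjusted p = 0.0243 over the 23 regions), and it was the single call among the 23 regions, or 4.35%. The values came from 234 and 177 reads in the Adjacent libraries and 24 and 8 in the controls.

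The call at MMP17-B rested on few libraries, although its size did not. Against the control that shares the identifier, IL1RN replicate 1 alone, the ratio was 8.54, and with the identifier as a block, its absence taken as one level, the estimate was 2.82 (SE 0.62, limma adjusted p = 0.00167). Leaving out a library gave estimates of 3.02 to 3.38, but the adjusted p was 0.122 without Adjacent replicate 1, 0.245 without Adjacent replicate 2 and 0.0873 without IL1RN replicate 2. It was 0.0564 after division by the median of ERBSs and promoters and 0.0648 when adjusted over all pool contrasts of the antibody. The exact two-sided permutation test of the Adjacent pair against the 8 other libraries gave p = 0.0444, the smallest that 45 splits allow, and 0.311 after adjustment over the 7 tests of this kind, of which 0.0% passed. An adjusted pass would have needed all 7 tests at that smallest p, so the adjusted value cannot decide for 1 region.

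At the other adjacent regions the H3K27ac values did not pass the test. CISH-B had 0.234 and 0.406 with Adjacent gRNAs and 0.0139 and 0.202 with IL1RN gRNAs, a 2.97-fold difference of means (2.36 on the log2 scale, SE 1.09, limma adjusted p = 0.268). Both Adjacent values were above both control values, as at 4 of the 23 regions (17.4%, with 21.7% below both), but the pool libraries reached 0.353 and overlapped them. The CISH-B control values rested on 2 and 12 reads. Without IL1RN replicate 2 its adjusted p was 0.0458, and with the identifier as a block it was 0.00530.

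The remaining 4 regions had low values on both sides. MMP17-A had 0.208 and 0.135 with Adjacent gRNAs and 0.0971 and 0.573 with IL1RN gRNAs (log2 change -0.49, SE 0.88). CISH-A had 0.107 and 0.117 against 0.0485 and 0.337 (log2 change -0.21, SE 1.25). In both, the Adjacent pair fell between the control values. FHL2-A had 0.0852 and 0.163 against 0.0277 and 0.371 (log2 change 0.16, SE 1.23), and FHL2-B had 0.170 and 0.244 against 0.0694 and 0.320 (log2 change 0.43, SE 1.25). Limma adjusted p-values were 0.838 to 0.940 in these regions, and the 95% intervals of the changes ran from -2.87 at the lowest to 3.09 at the highest, so changes of several fold in either direction were not excluded at this depth. Over the 6 adjacent regions the median log2 change was 0.29, beside -0.21 over all 23 regions.

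The outcome at these regions depended on which control was read. Both Adjacent libraries were above IL1RN replicate 1, which shares the identifier in their peak names, at 6 of 6 adjacent regions, beside 12 of 23 regions of the table (52.2%). They were above IL1RN replicate 2 at 2 of 6, MMP17-B and CISH-B, beside 7 of 23 (30.4%). The identifier and the control replicate cannot be told apart among the 4 libraries.

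**Figure D1:**
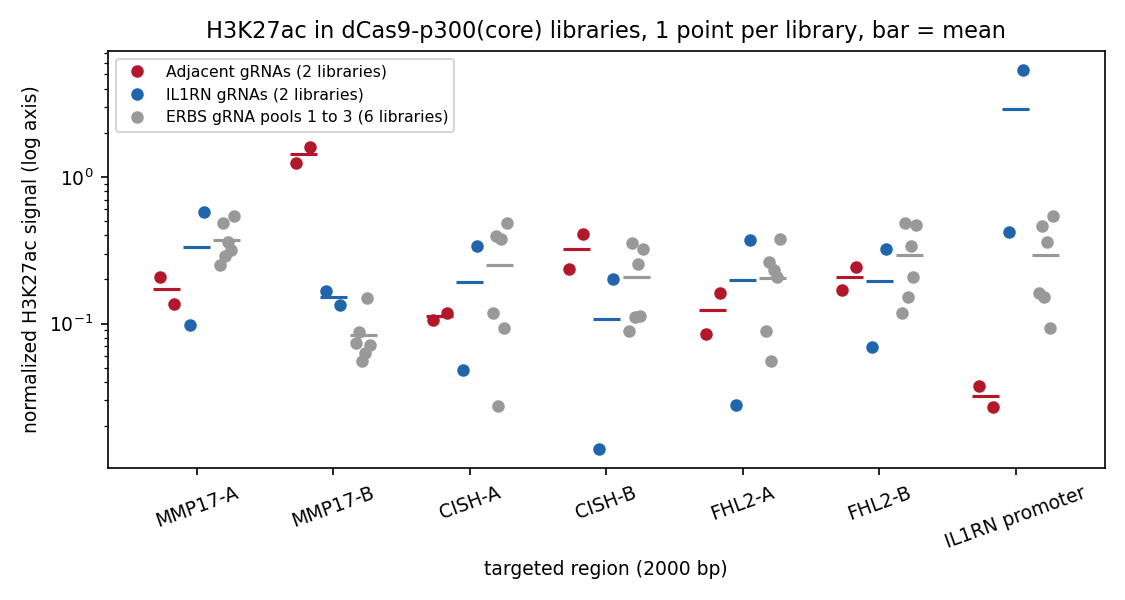
Normalized H3K27ac signal (log axis) at the 6 adjacent regions and the IL1RN promoter in the 10 dCas9-p300(core) libraries, with 1 point per library and a bar at the mean of each group. The Adjacent libraries stand clear of every other library at MMP17-B (1.25 and 1.60), overlap them at the other adjacent regions, and are the lowest at the IL1RN promoter.

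Peaks gave the position of the acetylation at MMP17-B. An H3K27ac peak of 715 bp with a fold enrichment of 64.1 over background (-log10 p 230) was called in Adjacent replicate 1, and one of 666 bp with 52.9 (-log10 p 157) in Adjacent replicate 2. Their summits lay at -44 and -51 bp from the centre of the region, between the outermost gRNA sites, and both peaks covered all 4 sites. No H3K27ac peak was called there in either IL1RN library or in any of the 6 ERBS pool libraries of dCas9-p300(core). The pool lists held only 1805 to 10532 peaks, against 24280 and 16457 for Adjacent, so absence from them is a weak comparison. RNAPII peaks were also called at MMP17-B in both Adjacent libraries, with fold enrichments of 11.3 and 8.84, and in neither IL1RN library. These RNAPII summits lay 142 and 50 bp to the right of the centre.

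**Figure D2:**
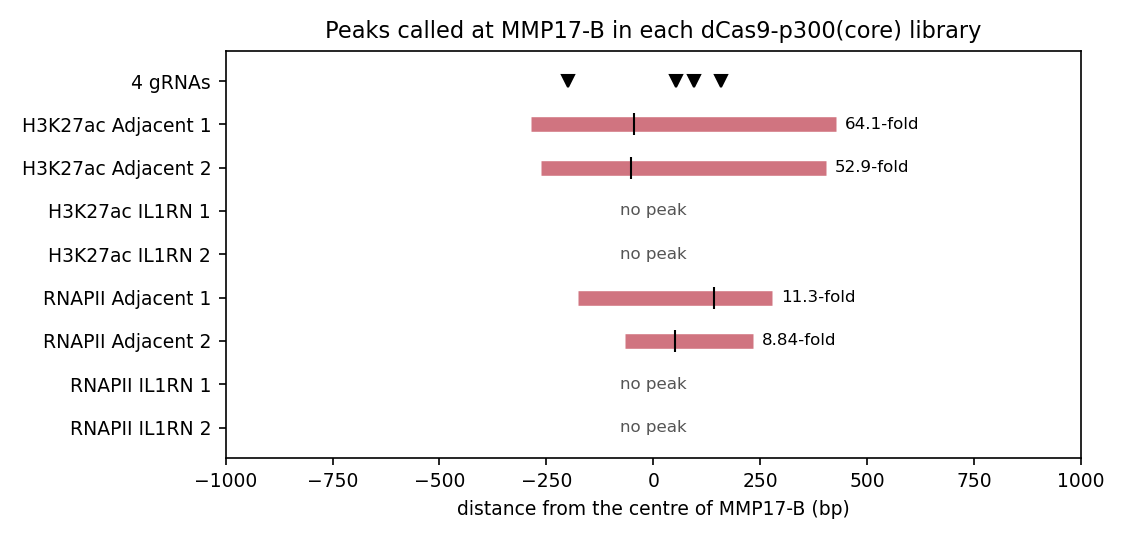
Peaks called at MMP17-B in each of the 8 libraries, by distance in bp from the centre of the region: bars span the peak, ticks mark the summit, numbers give the fold enrichment and triangles mark the 4 gRNA sites. Peaks are present in all 4 Adjacent libraries and in none of the 4 IL1RN libraries. The H3K27ac peaks cover all 4 gRNA sites, and the RNAPII peaks do not reach the leftmost site.

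The other 5 adjacent regions had no H3K27ac peak in any of the 4 libraries. At MMP17-A, RNAPII peaks were called in both Adjacent libraries (10.7 and 10.8-fold) and in IL1RN replicate 2 (8.91-fold), with summits 562, 569 and 1049 bp to the right of the centre. CISH-A, CISH-B, FHL2-A and FHL2-B had no RNAPII peak either.

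RNAPII signal did not pass the test at any of the 6 adjacent regions, or at any of the 23 regions (0.0%). MMP17-B had 0.178 and 0.126 with Adjacent gRNAs and 0.0566 and 0.0829 with IL1RN gRNAs, a 2.18-fold difference of means (1.09 on the log2 scale, SE 0.64, limma adjusted p = 0.647). Both Adjacent values exceeded the controls and the 0.0503 to 0.118 of the ERBS pools, the only such region of the 23 (4.35%), with an exact permutation p of 0.0444 and an adjusted p of 0.311. By an unadjusted limma p under 0.05, 0 of the 23 regions passed as well. MMP17-B rested on 44 and 38 reads against 7 and 21.

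The other adjacent regions showed RNAPII values that crossed between groups or were very low. MMP17-A had the highest level of the 6 regions, with 0.393 and 0.510 against 0.493 and 0.383 (log2 change 0.04, SE 0.44). CISH-A had 0.0932 and 0.0629 against 0.154 and 0.0395 (log2 change -0.04, SE 0.61), and CISH-B had 0.126 and 0.129 against 0.242 and 0.0868 (log2 change -0.19, SE 0.58). In each of these the Adjacent values lay inside or across the control range. FHL2-A had 0.0203 and 0.0298 against 0.0162 and 0.00395, from 9 or fewer reads in each library, which is too few to compare. FHL2-B had 0.101 and 0.0662 against 0.137 and 0.0197 (log2 change 0.57, SE 0.91). The median log2 change over the 6 was 0.31, beside 0.04 over all 23 regions. Both Adjacent libraries were above IL1RN replicate 1 at 2 of 6 adjacent regions and 9 of 23 in all (39.1%), and above IL1RN replicate 2 at 6 of 6 and 8 of 23 (34.8%).

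**Figure D3:**
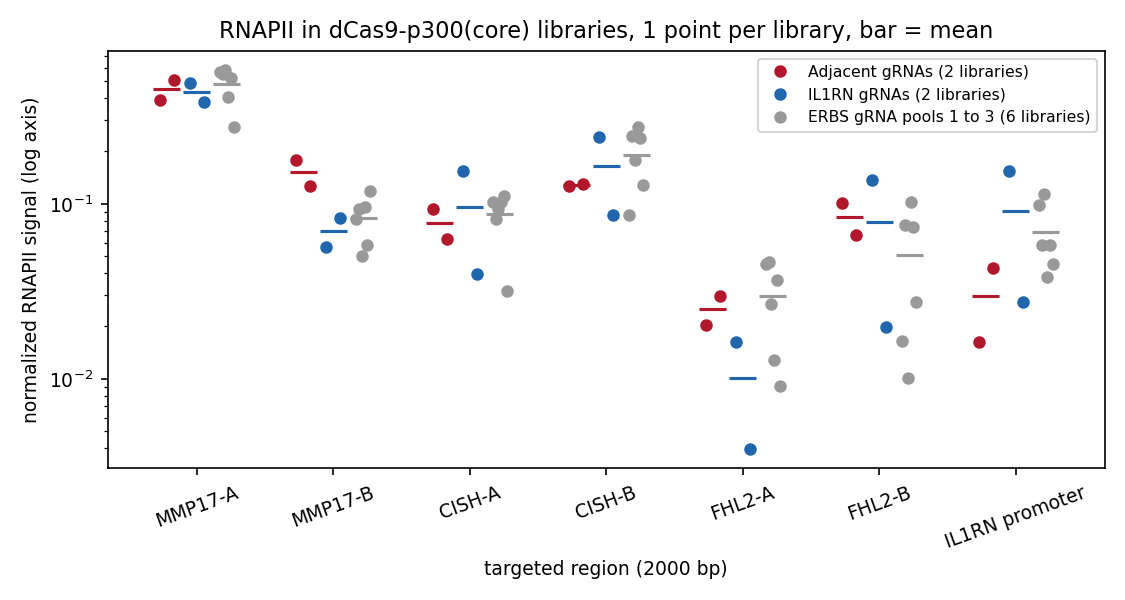
Normalized RNAPII signal (log axis) at the same regions and in the 10 RNAPII libraries of dCas9-p300(core), with 1 point per library and a bar at the mean of each group. The Adjacent libraries are above all others at MMP17-B (0.178 and 0.126) and overlap other libraries at the IL1RN promoter and at every other adjacent region. At FHL2-A they are above both IL1RN libraries but within the range of the ERBS pools.

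None of the ERBSs next to the adjacent regions, which neither pool targets, passed the test for H3K27ac. Over the 9 ERBSs of MMP17, CISH and FHL2, the ratio of means ran from 0.103 at CISH-3 to 1.64 at MMP17-1, with a median log2 change of -1.17, and 7 of 9 changes were below 0, beside 12 of all 23 regions. The direction depended on the control: the Adjacent mean was above IL1RN replicate 1 at 5 of the 9 ERBSs, MMP17-1, MMP17-3, CISH-1, CISH-2 and FHL2-2, and above the weakly enriched IL1RN replicate 2 at 1 of 9. MMP17-2, the ERBS nearest to MMP17-B, had 0.0532 and 0.0542 with Adjacent gRNAs against 0.0832 and 0.320 and both Adjacent values were below both controls. MMP17-1, between MMP17-A and MMP17-2, had 0.628 and 0.379 against 0.229 and 0.387. The lowest change was at CISH-3, with 0.0266 and 0.0181 against 0.0624 and 0.371 (log2 change -2.59, SE 1.20, limma adjusted p = 0.268). The 3 HES2 ERBSs, on a locus with no adjacent gRNAs, had ratios of 0.410 to 1.34.

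RNAPII at the same 9 ERBSs had ratios of 0.563 to 1.44 with a median log2 change of -0.29, and those of HES2 0.702 to 1.01. MMP17-1 had 1.44 and 1.37 with Adjacent gRNAs and 0.654 and 1.30 with IL1RN gRNAs (log2 change 0.61, SE 0.42, limma adjusted p = 0.647). CISH-1 had 0.0730 and 0.0596 against 0.129 and 0.0868 (log2 change -0.65, SE 0.42, limma adjusted p = 0.647). In MMP17-1 both Adjacent values were above both controls, as at 3 of the 23 regions (13.0%). In CISH-1 and CISH-3 both were below, the only 2 of the 23 (8.7%).

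Promoters of the genes next to the adjacent regions did not pass the test for H3K27ac. H3K27ac at the MMP17 promoter was 0.580 and 0.560 with Adjacent gRNAs and 0.527 and 0.354 with IL1RN gRNAs (1.29-fold, log2 change 0.40, SE 1.29). At the CISH promoter it was 1.34 and 1.00 against 0.964 and 0.657 (1.45-fold, log2 change 0.54, SE 0.72). Both Adjacent libraries were above all 8 other dCas9-p300(core) libraries at these promoters and at MMP17-B, 3 of the 23 regions (13.0%). Neither promoter passed limma (adjusted p = 0.923 and 0.838). The 6 ERBS pool libraries among the 8 had 1805 to 10532 H3K27ac peaks, against 24280 and 16457 for Adjacent. Their median signal was also low at the FHL2 promoter (0.481, Adjacent mean 1.04) and the HES2 promoter (0.958, Adjacent mean 1.67). The FHL2 promoter had 1.19 and 0.885 against 1.103 and 0.809, and the HES2 promoter 1.84 and 1.51 against 1.83 and 0.960, with overlapping groups. All 4 gene promoters had a positive log2 change for H3K27ac (0.12 to 0.54), and IL1RN replicate 2, the library with low enrichment, was the lowest of the 4 libraries at each.

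For RNAPII, the MMP17 promoter had 0.616 and 0.4997 with Adjacent gRNAs and 0.0889 and 0.746 with IL1RN gRNAs (log2 change 1.08, SE 0.71, limma adjusted p = 0.647). The CISH promoter had 1.36 and 1.40 against 0.711 and 1.58. The FHL2 promoter had 0.815 and 0.728 against 0.420 and 1.09, and the HES2 promoter 1.13 and 1.16 against 0.452 and 1.68. In all 4, the Adjacent pair lay between IL1RN replicate 1, the library with low enrichment, and IL1RN replicate 2. Without IL1RN replicate 2 the MMP17 promoter changed by 2.59 and without IL1RN replicate 1 by -0.42, so its direction depended on the control library.

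**Figure D4:**
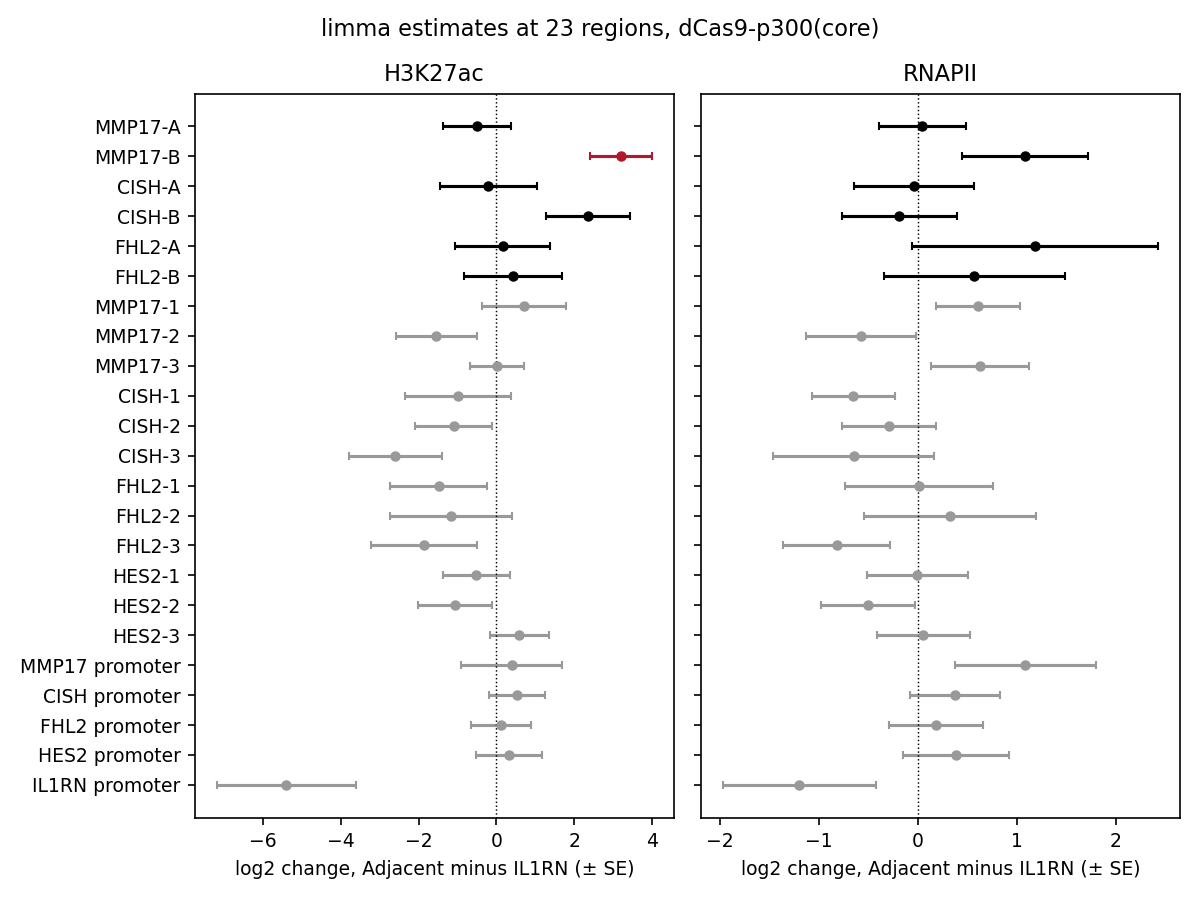
Limma log2 changes, Adjacent minus IL1RN, with their standard errors at the 23 regions for H3K27ac (left) and RNAPII (right), with adjacent regions in black and the called region in red. MMP17-B is called for H3K27ac (3.20), the IL1RN promoter lies at -5.40 without passing, and no RNAPII change passes.

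The Adjacent gRNAs were also used with dCas9-VP16(10x), in which 10 copies of a viral activation domain replace p300, and the difference between fusions was tested. For H3K27ac the gRNAs were not fully matched, because the targeted pools of VP16 Adjacent replicate 1 are given as Adjacent and IL1RN together. The interaction, the p300 change minus the VP16 change, passed at 0 of 23 regions for either antibody (0.0%, limma), with unadjusted p under 0.05 at 2 regions for H3K27ac, MMP17-A and CISH-3, and at 0 for RNAPII. At MMP17-B, H3K27ac with dCas9-VP16(10x) was 0.0998 and 0.284 with Adjacent gRNAs and 0.0377 and 0.0205 with IL1RN gRNAs. The interaction there was 0.77 (SE 1.13, 95% interval -1.63 to 3.16, limma adjusted p = 0.726), and 0.03 (SE 1.27, 95% interval -2.67 to 2.73) without the mixed-pool library. At CISH-B it was -0.56 (SE 1.54), and 0.11 (SE 1.75) without that library. At MMP17-A, where dCas9-VP16(10x) gave 0.215 and 0.391 against 0.0314 and 0.102, it was -2.75 (SE 1.24, limma adjusted p = 0.405), and at CISH-A it was -2.65 (SE 1.77). For RNAPII, the largest interaction in size among adjacent regions was -1.79 at FHL2-B (SE 1.29, limma adjusted p = 0.920), where dCas9-VP16(10x) gave 0.331 and 0.406 against 0.0716 and 0.0647. The mixed-pool library had 2.57 of H3K27ac at the IL1RN promoter, between the 0.408 and 4.00 of the IL1RN libraries of that construct, and VP16 Adjacent replicate 2 had 0.112. Without it 0 of 23 H3K27ac interactions passed, with unadjusted p under 0.05 at 1 region, MMP17-A (-3.17, SE 1.44), and VP16 Adjacent then has a single library, assumed to vary like the other groups.

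Genome-wide, the peaks of the 4 H3K27ac libraries merged into 26005 regions, of which 326 (1.25%) had a peak in both Adjacent libraries and in neither control. The opposite pattern, both controls and no Adjacent library, was found in 97 regions (0.373%). MMP17-B had the highest enrichment of the 326, with a mean of 58.5 over both Adjacent libraries, beside 20.6 for the next region and a median of 11.8 and 9.42 in the respective libraries. The count moved with the control lists: it was 12165 against 1057 of the opposite pattern without IL1RN replicate 1, and 137 against 25 when each library was reduced to its 4088 strongest peaks. The opposite pattern was the more frequent without IL1RN replicate 2 (370 against 736) and with a -log10 p of at least 20 asked of Adjacent peaks (139 against 164), so the excess over the opposite pattern depended on the setting.

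The 7 regions next in enrichment all lay within 1000 bp of a TSS. They were near the TSSs of LRRC8D, a volume-regulated anion channel subunit (24.2 and 17.1-fold), ZFTRAF1 (31.2 and 8.86), UNC13D, a factor of cytotoxic granule release (27.2 and 11.1), and PSMB4, a proteasome subunit (25.2 and 12.4). The other three were at EIF3D, a translation initiation factor (27.3 and 9.76), NFIC, a transcription factor (24.9 and 11.2), and C1orf159 (21.2 and 14.4). All 7 were stronger in Adjacent replicate 1 than in replicate 2, and those of UNC13D and EIF3D also had a peak in all 4 H3K27ac libraries of dCas9-VP16(10x) with Adjacent or IL1RN gRNAs. None of these 7 held a gRNA match with fewer than 6 mismatches beside an NGG. The 3 strongest regions of the opposite set had enrichments of 9.17 and 13.3 between genes on chromosome 11, 12.1 and 10.1 beside CYP4B1, and 9.56 and 10.9 on chromosome 5.

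**Figure D5:**
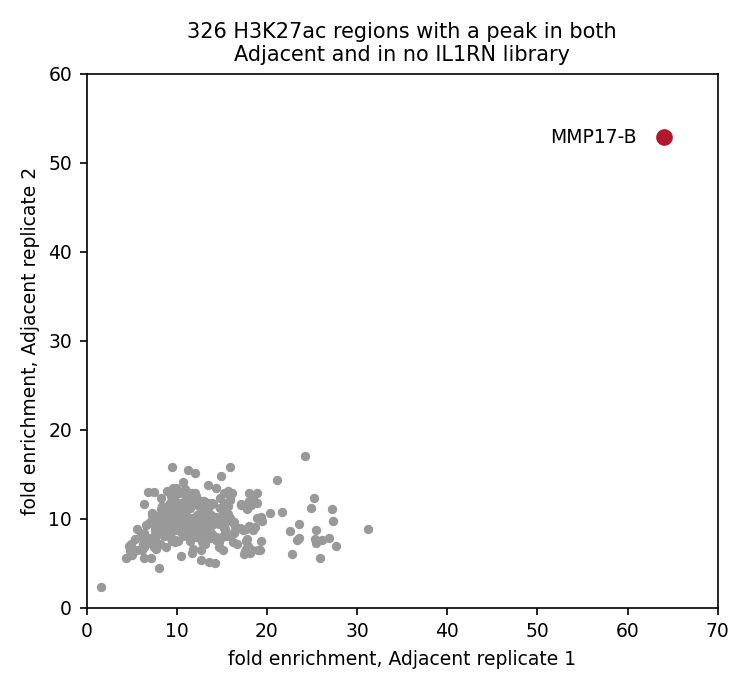
Fold enrichment over background in Adjacent replicate 1 (horizontal) and replicate 2 (vertical) for the 326 H3K27ac regions with a peak in both Adjacent and in no IL1RN library, with 1 point per region. MMP17-B (64.1 and 52.9) lies apart from all others, of which none exceeds 31.2 in replicate 1 or 17.1 in replicate 2.

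A perfect gRNA match was present in 1 of the 326 regions, MMP17-B. Matches with 1 to 3 mismatches beside an NGG were present in 0 of the 326. That count was also 0 in the 97 opposite regions and 0 in the 2140 regions with a peak in all 4 libraries. A protein-coding TSS lay within 1000 bp of 163 of the 326, compared with 25.8% of the 97 and 79.1% of the 2140. With dCas9-VP16(10x), both Adjacent libraries and neither IL1RN library had a peak in 6 of the 326 (1.84%), and the reverse was true of 1. Of the 326, 192 had no peak in any p300 or VP16 library without Adjacent gRNAs outside the comparison. This held for 0 of the 97 opposite regions and 0 of the 2140. Both of those sets need a peak in IL1RN replicate 2, whose list holds 4088 peaks, whereas the 326 must lack one. These counts are therefore not comparable. None of these 192 had a peak in both dCas9-VP16(10x) Adjacent libraries. MMP17-B, which is among the 192, had one in 1 of those libraries, so this criterion misses the targeted region itself. An RNAPII peak in both Adjacent and no IL1RN library overlapped 21 of the 326, 0 of the 97 and 3 of the 2140. Whatever the RNAPII controls showed, peaks in both Adjacent libraries overlapped 196 of the 326, 7 of the 97 and 1884 of the 2140. Of all RNAPII regions, 9.09% were in both Adjacent and no IL1RN library.

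RNAPII peaks merged into 39637 regions, of which 3602 (9.09%) were in both Adjacent libraries and no control and 281 (0.709%) in both controls and no Adjacent library. Both Adjacent lists were longer than both control lists. Leaving out IL1RN replicate 2 raised the count to 15236, and taking the 18809 strongest peaks of each library lowered it to 786. MMP17-B ranked 1640 of the 3602 by mean enrichment (10.1). The strongest were at SLC6A8, the creatine transporter (24.5 and 23.7-fold), ZFAND2A (20.5 and 25.8), a region between genes on chromosome 20 (18.5 and 24.6) and TMEM101 (22.7 and 19.7). The next were in ADGRA2 (19.2 and 22.02), at AMT, a subunit of the glycine cleavage system (20.4 and 20.6), near ZNF490 (20.6 and 20.3) and near GALNT11 (21.1 and 19.0). Each of these 8 regions also had an RNAPII peak in at least 3 of the 6 ERBS pool libraries of dCas9-p300(core), which lack Adjacent gRNAs, as did 80.1% of the 3602 in at least 1. The opposite set was led by regions near PLK2, a stress-responsive kinase (30.4 and 11.8), in MYL9 (21.8 and 10.7) and near HUWE1 (18.4 and 13.0).

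Around the adjacent regions, 3 of the 24 H3K27ac regions within 100 kb of a centre were in both Adjacent and no control library (12.5%, beside 1.25% of all regions). They were MMP17-B, a piece of the MMP17 promoter (7.49 and 8.10-fold) and the promoter of C2orf49 (14.3 and 7.59-fold). At the MMP17 promoter, IL1RN replicate 1 had its own peak of 8.21-fold further upstream, which did not overlap, so this region rests on peak boundaries. At C2orf49, all 4 H3K27ac libraries of dCas9-VP16(10x) with Adjacent or IL1RN gRNAs had a peak.

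For RNAPII, 7 of the 42 regions within 100 kb had this pattern (16.7%, beside 9.09% of all), and all 7 were at the MMP17 locus. They were MMP17-B, 4 pieces in SFSWAP, of which the strongest had 16.5 and 13.2-fold at 8046 bp from the MMP17-A centre, and 2 in ULK1, the kinase that starts autophagy. The ULK1 pieces had 10.5 and 9.27-fold and 7.08 and 6.95-fold. In 0 regions within 100 kb did either antibody show the opposite pattern.

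The 12 protein-coding genes with a TSS within 100 kb of an adjacent centre were C3orf18, CACNA2D2, CISH, DOCK3, HEMK1 and MAPKAPK3 on chromosome 3, C2orf49, FHL2 and TGFBRAP1 on chromosome 2, and MMP17, SFSWAP and ULK1 on chromosome 12. An H3K27ac peak within 1000 bp of a TSS was called at 12 and 11 of them in the Adjacent libraries, 11 in IL1RN replicate 1 and 1, SFSWAP, in IL1RN replicate 2. For RNAPII the numbers were 12 and 12 in the Adjacent libraries, 7 in IL1RN replicate 1 and 12 in IL1RN replicate 2, so the shortfall lay in the library of each antibody that had low enrichment. At SFSWAP, H3K27ac enrichment was 40.8 and 36.4 with Adjacent gRNAs and 41.1 and 9.64 with IL1RN gRNAs. The CISH promoter, whose peak also covers a TSS of the kinase gene MAPKAPK3, had H3K27ac enrichment of 19.7 and 16.7 against 18.6 in IL1RN replicate 1. FHL2 had 31.8 and 23.9 against 24.4, and MMP17 had 7.49 and 8.10 against 8.21. RNAPII enrichment at MMP17 was 13.0 and 14.2 against 19.3 in IL1RN replicate 2, and no peak was called there in IL1RN replicate 1.

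Where a peak was called in all 4 libraries, the strength of enrichment could be tested. Of 2140 H3K27ac regions, 0 were higher and 0 lower with Adjacent gRNAs (0.0% each, limma), and by an unadjusted p under 0.05 the counts were 0 higher and 1 lower. Of 10874 RNAPII regions, 0 passed in either direction (0.0%), with 39 higher and 47 lower by unadjusted p. The region of FHL2 had RNAPII enrichment of 39.4 and 37.6 against 11.7 and 55.7, and that of CISH and MAPKAPK3 26.9 and 30.4 against 8.61 and 36.5. In both, the Adjacent pair lay between the controls. The fit has 2 residual degrees of freedom, which limits the changes it can call. Leaving out a control leaves 1 library in that group, with the spread taken from the Adjacent pair alone. With the weakly enriched control as the only one, 132 H3K27ac regions were higher and 485 lower, and 241 RNAPII regions were higher and 827 lower, while 0 passed with the other control alone.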

How the data were processed

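Per the labels and the study's methods, the authors aligned single-end ChIP-seq reads to hg19, removed duplicates and called peaks per library. The submitters' processing notes name Bowtie 1.1.2, SAMtools, bedtools and MACS2 2.1.0.20140616. The deposited table holds signal in 23 regions of 2000 bp, which the authors made by dividing reads by total depth and by the average depth in peaks of that antibody. Deposited peak lists give fold enrichment and -log10 p, and the lowest -log10 p in the 8 lists is 10.0.

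Signal was tested with limma 3.58.1 (R 4.3.3) on log2(signal + the smallest value above 0), a scale that understates changes of low regions. All 20 libraries of an antibody entered as 10 group means, and p-values were two-sided and adjusted by Benjamini-Hochberg over 23 regions with a threshold of 0.05. For 7 regions an exact permutation test compared the 2 targeted libraries with the 8 others. Peaks were merged at 1 bp of overlap, and the highest fold enrichment per library was median-centred and tested with limma in regions with a peak in all 4 libraries. Signal values are whole multiples of a step per library, which gave the reads behind each value. These cover counting error only. TSSs came from GENCODE lift37 version 44, and gRNA sequences from the study's list. Scripts used Python 3.11.15, pandas 2.3.3 and SciPy 1.17.1 and were tested on simulated data.

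All 23 regions were named. Of peak regions in both Adjacent and no IL1RN library, those within 100 kb of an adjacent centre and the 8 with the highest mean enrichment per antibody were named, with the 3 highest of the opposite set. The members and lists were chosen with earlier results of these data known. Alternatives covered the pseudocount, a filter on low regions, scaling, blocks, the libraries in the fit, peak thresholds, merging and leaving out each library.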

Additional observations from a re-analysis of the deposited data

Results flagged for a closer look

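RNAPII at MMP17-1 and CISH-1 moved in opposite directions with the 2 fusions, every Adjacent library of each fusion lying on one side of its controls. At MMP17-1 the ratio of Adjacent to IL1RN means was 1.44 with dCas9-p300(core) and 0.951 with dCas9-VP16(10x). At CISH-1 it was 0.613 with dCas9-p300(core) and 1.19 with dCas9-VP16(10x). With dCas9-p300(core), 13.0% of the 23 regions had both Adjacent values above both controls, and 8.7% had both below. With dCas9-VP16(10x), both were also above at every adjacent region and at CISH-2, FHL2-3, HES2-2 and HES2-3. They were also below at FHL2-1, CISH-3 and the IL1RN promoter. The dCas9-p300(core) ratio at MMP17-1 was 2.15 against the weakly enriched IL1RN replicate 1 alone and 1.08 against replicate 2 alone. The difference between fusions did not pass the limma interaction test at MMP17-1 or CISH-1 (0.68 and -0.90 on the log2 scale, adjusted p = 0.920 for both).

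A signal outside the main comparison came from the HA antibody, which binds the tag on the dCas9 fusion. With dCas9-VP16(10x), HA signal at MMP17-B was 5.55 and 8.31 in the Adjacent libraries and 0.431 in the single IL1RN library, a ratio of 16.0. The ratio was 5.38 at MMP17-A, 11.7 at CISH-A, 10.9 at CISH-B, 20.3 at FHL2-A and 9.43 at FHL2-B. With 1 control library these ratios have no test. The series holds no HA library with dCas9-p300(core) and the Adjacent gRNAs. Binding of that fusion at the adjacent regions was therefore not measured.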

How the results depend on the processing

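With 2 libraries per group, and 1 weakly enriched control for each antibody, calls moved with settings, and the cause was not tested. A count model on recovered reads was not run. Against 1 H3K27ac region called, 2 were called with 4 times the pseudocount, 3 with the identifier in the peak names as a block and 2 with dCas9-p300(core) libraries only. The count was 0 without the regions of lowest signal, which removes all 6 adjacent regions, 0 after division by the median and 0 when adjusted over all pool contrasts, and leaving out 1 library gave 0 to 2. The labels do not say what a replicate number marks. For H3K27ac, replicate 1 alone carries the identifier in 8 of 10 groups, but both Adjacent libraries carry it, so the numbers do not pair the 4 libraries by it. The correlation of same-numbered deviations was 0.43 for H3K27ac and -0.15 for RNAPII, and with a replicate block 2 H3K27ac and 0 RNAPII regions were called. A crossed block, chosen after seeing the data, gave 0 for RNAPII. RNAPII calls were 0 to 1 without 1 library, with MMP17 promoter called without IL1RN replicate 2. Both interaction counts were 0 under every alternative run. Both permutation counts were 0 too, but they could hardly have been otherwise. With pool libraries only (smallest possible p 0.0714) or without 1 library, no permutation p could reach 0.05. In the other settings a pass needed all 7 tests at the smallest p of 0.0444.

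The 326 H3K27ac regions, against 97 of the opposite pattern, became 139 against 164 with a -log10 p of at least 20 for Adjacent, 302 against 47 with it in every library, 137 against 25 with equal numbers of peaks, 245 against 72 with peaks within 500 bp merged and 671 against 90 with a reciprocal overlap of 0.5. Without 1 library they were 370 to 12165 against 162 to 1057 (370 against 736 without IL1RN replicate 2, 7317 against 169 without Adjacent replicate 2). The 3602 RNAPII regions, against 281, became 1930 against 511, 2786 against 172, 786 against 133, 2337 against 185 and 4785 against 697 in the same order, and 3828 to 15236 against 317 to 4191 without 1 library. In regions with a peak in all 4 libraries, leaving out 1 library gave 0 to 617 calls for H3K27ac and 0 to 1068 for RNAPII.

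Signs changed, with log2 changes of 0.08 at FHL2-2, 0.03 at CISH-1 and 0.63 at CISH-A for H3K27ac with the identifier as a block, and of -0.08 at MMP17-A and -0.12 at FHL2-1 for RNAPII after division by the median. Without 1 library, H3K27ac ran from -1.75 to 0.76 at MMP17-A, -0.45 to 0.49 at MMP17-3, -0.14 to 0.79 at the HES2 promoter, -0.64 to 1.5 at FHL2-B, -0.10 to 0.34 at the FHL2 promoter, -2.78 to 0.43 at FHL2-2, -1.62 to 1.94 at FHL2-A, -2.29 to 0.11 at CISH-2, -2.64 to 0.68 at CISH-1 and -1.56 to 1.14 at CISH-A. RNAPII ran from -0.14 to 0.23 at MMP17-A, -1.22 to 0.07 at MMP17-2, -0.42 to 2.59 at the MMP17 promoter, -0.15 to 1.39 at MMP17-3, -0.55 to 1.33 at the HES2 promoter, -0.72 to 1.86 at FHL2-B, -0.50 to 0.87 at the FHL2 promoter, -0.73 to 0.75 at FHL2-1, -0.64 to 1.29 at FHL2-2, -0.91 to 0.53 at CISH-B, -0.77 to 0.19 at CISH-2, -0.97 to 0.89 at CISH-A and -0.20 to 0.95 at the CISH promoter.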
